A study of Mus musculus with 28 samples.

Results

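NRF2 is the transcription factor that switches on many antioxidant and detoxifying enzymes, and 10 genes of its pathway are described here: *Nfe2l2*, which encodes NRF2, *Keap1*, which encodes its inhibitor, and the reported targets *Nqo1*, *Gclc*, *Gclm*, *Txnrd1*, *Srxn1*, *Hmox1*, *Gpx2* and *G6pdx*. They were chosen by name, with earlier results of these data known, and all 10 were among the 13519 genes counted. The data are bulk RNA-seq of organoids grown from the colon epithelium of C57BL/6N mice. Organoids are small epithelial structures grown in a gel from the stem cells of the crypt, and these carried a tamoxifen-inducible Cre under the *Villin* promoter (VillinCreERT2), which is active in intestinal epithelium. All 4 genotypes carried 2 floxed *Apc* alleles (APCflox/flox). AC organoids carried no other engineered allele besides Cre, PAC organoids also had Trp53LSL-R172H/+, BAC organoids BraffloxV600E/+, and BPAC organoids had both. Each culture was treated with 4-HT (4-hydroxytamoxifen, 3.5 µM for 24 hours), which activates Cre, or with ethanol (EtOH) as the control, and RNA was isolated 3 days after treatment. Of the 7 donor mice behind the 28 samples 1 was AC and 2 were of each other genotype, and every donor gave 2 cultures, called duplicates 1 and 2. For BAC donor 2, the label of the 4-HT-treated sample taken as duplicate 1 carries no number, so its duplicate was assigned because number 2 was taken by the other, and the changes of both BAC donor 2 cultures rest on that. AC therefore has 2 samples per treatment from 1 animal, and the other genotypes have 4 from 2 animals. The study describes donor mice in the plural for every genotype, whereas the labels name a single one for AC, and the labels were followed. Neither organoids without floxed *Apc* nor organoids without Cre were among the samples, so that *Apc* loss, Cre activity and 4-HT itself cannot be told apart in any change described below. The culture medium contained N-acetylcysteine, an antioxidant and glutathione precursor, in both treatments.

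In unstressed cells KEAP1 binds NRF2 and presents it to a CUL3 ubiquitin ligase, so that the protein is short-lived. Oxidants and electrophiles modify KEAP1, NRF2 accumulates, pairs with a small MAF protein and binds antioxidant response elements at its target genes, while BACH1 competes for the same elements as a repressor. NRF2 is thus regulated mainly as a protein, and the counts here measure RNA only. In the intestine the pathway is known for protection against dietary electrophiles and for its activity in many carcinomas.

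The core of the antioxidant response element was searched in the promoters of these genes as the letters TGACNNNGC on both strands. The windows are RefSeq's, of build GRCm38.p6, with 250 bases before and 50 bases after each gene's start. Of the 10 genes, 8 had a window, *Gclc* and *Hmox1* had none in the table used, and 5 of the 8 genes (62.5%) held the letters. Over the windows of all genes the share was 12.4% of 32851 windows, or 13.99% of the 27025 genes with a window. The 5 windows that held a match are shown so that its place can be seen, and that of *Nqo1*, which held none, for contrast. They are written 5′ to 3′ on the strand of the gene in lower case, with the match in capitals, which reads TGACNNNGC for *Nfe2l2* and GCNNNGTCA, the same letters on the opposite strand, for the others.

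Nfe2l2, chr2:75704614-75704913, minus strand: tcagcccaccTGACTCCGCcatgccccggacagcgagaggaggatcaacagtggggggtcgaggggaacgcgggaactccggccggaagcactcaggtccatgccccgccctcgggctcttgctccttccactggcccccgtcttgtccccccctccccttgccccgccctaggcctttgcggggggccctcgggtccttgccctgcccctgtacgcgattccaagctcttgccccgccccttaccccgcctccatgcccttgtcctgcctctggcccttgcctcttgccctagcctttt
Gclm, chr3:122245307-122245606, plus strand: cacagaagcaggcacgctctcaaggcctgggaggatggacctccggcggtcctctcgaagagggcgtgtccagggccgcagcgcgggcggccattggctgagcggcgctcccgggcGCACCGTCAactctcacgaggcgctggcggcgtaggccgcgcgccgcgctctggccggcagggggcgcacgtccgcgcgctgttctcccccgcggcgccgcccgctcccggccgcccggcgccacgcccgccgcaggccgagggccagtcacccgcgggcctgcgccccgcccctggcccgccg
Txnrd1, chr10:82858956-82859255, plus strand: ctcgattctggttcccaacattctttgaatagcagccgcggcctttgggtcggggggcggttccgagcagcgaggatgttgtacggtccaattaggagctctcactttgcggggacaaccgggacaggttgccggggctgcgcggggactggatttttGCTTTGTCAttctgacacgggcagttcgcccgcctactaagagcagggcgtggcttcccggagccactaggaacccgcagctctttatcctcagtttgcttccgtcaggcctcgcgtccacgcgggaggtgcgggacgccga
Srxn1, chr2:152105274-152105573, plus strand: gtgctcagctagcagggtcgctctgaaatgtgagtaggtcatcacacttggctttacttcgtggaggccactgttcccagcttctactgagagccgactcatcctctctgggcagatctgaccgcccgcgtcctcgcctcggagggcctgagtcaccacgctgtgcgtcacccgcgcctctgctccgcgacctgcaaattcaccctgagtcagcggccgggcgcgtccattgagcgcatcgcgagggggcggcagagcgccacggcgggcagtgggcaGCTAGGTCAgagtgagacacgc
G6pdx, chrX:74428831-74429130, minus strand: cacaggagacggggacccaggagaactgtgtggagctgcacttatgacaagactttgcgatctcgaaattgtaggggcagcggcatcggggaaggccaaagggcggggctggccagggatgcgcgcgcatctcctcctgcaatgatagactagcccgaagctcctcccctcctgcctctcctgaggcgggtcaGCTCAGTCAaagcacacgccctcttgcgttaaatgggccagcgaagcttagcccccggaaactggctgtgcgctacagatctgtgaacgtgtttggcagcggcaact
Nqo1, chr8:107403156-107403455, minus strand: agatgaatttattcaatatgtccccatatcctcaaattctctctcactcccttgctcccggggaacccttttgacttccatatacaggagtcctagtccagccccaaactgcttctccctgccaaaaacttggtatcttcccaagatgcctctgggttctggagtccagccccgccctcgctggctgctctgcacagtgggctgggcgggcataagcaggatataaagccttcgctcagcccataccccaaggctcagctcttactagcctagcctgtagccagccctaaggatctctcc

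The match began 240 bases before the start used for the RefSeq window in *Nfe2l2*, 134 before it in *Gclm*, 92 before it in *Txnrd1*, 57 before it in *G6pdx* and 28 bases after it in *Srxn1*. That start need not be the outer end of the gene's span as given below, and lies 25255 bases inside it for *Txnrd1* and 314 for *G6pdx*. A match is a description of these letters and no measure of binding. Of the genes that held a match, *Srxn1* was called lower with 4-HT in 4 genotypes, *Gclm* in 2 and *Nfe2l2* in 1, *G6pdx* was called higher in 2, and *Txnrd1* was called in none.

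Library totals over genes ran from 20577276 to 40068718 counts. Levels are given as CPM, the usual unit of counts relative to library size, with sizes adjusted by the TMM method of edgeR, and a change was called at an adjusted p under 0.01. The 4-HT-treated libraries of PAC duplicate 1 stand apart. In those of both donors the female-specific *Xist* (22.03 and 25.2 CPM) and the Y-linked *Ddx3y* (12.96 and 13.8 CPM) were present together, whereas in each of the other 26 libraries the lower of these 2 genes was at most 0.291 CPM. Those 2 libraries also differed from each other less than any other pair of libraries did, with a chi-square per gene of 2.57 against at least 16.1. Their labels as donors 1 and 2 could thus not be checked, and whether material of the 2 donors was mixed was not tested. Values of these 2 libraries are given under their labels, and PAC calls among the 10 genes are given with and without both cultures of PAC duplicate 1. As a check of the labels, *Trp53* stood at 51.4 to 66.1 CPM with EtOH in PAC and BPAC, whose LSL allele is silent before recombination, and at 97.9 to 122 CPM in AC and BAC. With 4-HT it stood at 148 to 227 CPM in all genotypes. *Apc* counts (27.9 to 49.7 CPM with EtOH and 51.4 to 73.8 CPM with 4-HT) do not check its deletion, because a gene count includes the exons that remain. All 8 colon epithelium markers were present, and of 10 fibroblast, endothelial and immune markers 8 were not among the genes counted, while *Pecam1* reached at most 2.71 CPM and *Cd68* at most 4.83 CPM. Mature colonocyte markers moved with 4-HT: their summed level was 6798 to 12993 CPM with EtOH and 881 to 4775 CPM with 4-HT, and all 8 fell in the mean of the 4 genotypes. The 5 stem and crypt base markers counted, *Ascl2*, *Lgr5* and *Sox9* among them, all rose, from a summed 266 to 446 CPM to 635 to 949 CPM. The part of this shift in the changes below was not tested, and in bulk samples fewer cells of a type and less RNA per cell cannot be told apart.

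Levels between genes were compared per kilobase of exon. With EtOH, *Gpx2* was highest, at 391 ± 94.2 CPM per kb (SD, n = 14). Its product, glutathione peroxidase 2, is the peroxidase typical of the gut epithelium. *Nqo1* (195 ± 45.2), *Srxn1* (140.5 ± 28.9), *Gclc* (104 ± 31.7) and *Txnrd1* (98.9 ± 10.4) followed, and neighbours in this stretch did not differ beyond their SDs. *Nfe2l2* stood at 81.8 ± 3.93 CPM per kb, *Gclm* at 66.8 ± 8.88 and *G6pdx* at 55.2 ± 6.66. *Gclm* and *G6pdx* overlapped within their SDs. *Keap1* (16.4 ± 2.97) and *Hmox1* (10.2 ± 3.67) were lowest and also overlapped. With 4-HT *Gpx2* was still highest, at 863 ± 162 CPM per kb, ahead of *Nqo1* at 111 ± 15.5 and *Txnrd1* at 92.4 ± 5.69. *Nfe2l2* (72.9 ± 6.75), *G6pdx* (70.7 ± 11.9) and *Srxn1* (69.8 ± 7.44) then lay together, followed by *Gclc* (53.4 ± 6.52) and *Gclm* (51.5 ± 2.83). *Keap1* (19.3 ± 3.74) and *Hmox1* (9.95 ± 2.59) remained the lowest. *Srxn1* and *Gclc* thus lost rank from EtOH to 4-HT. Lengths were the union of annotated exons. With the longest transcript in their place *Txnrd1* came to 193 and *Nfe2l2* to 125 CPM per kb with EtOH, so the order depends on that choice. With 4-HT it put *Txnrd1* (181) and *Nfe2l2* (112) above *Nqo1* (111).

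**Figure D1:**
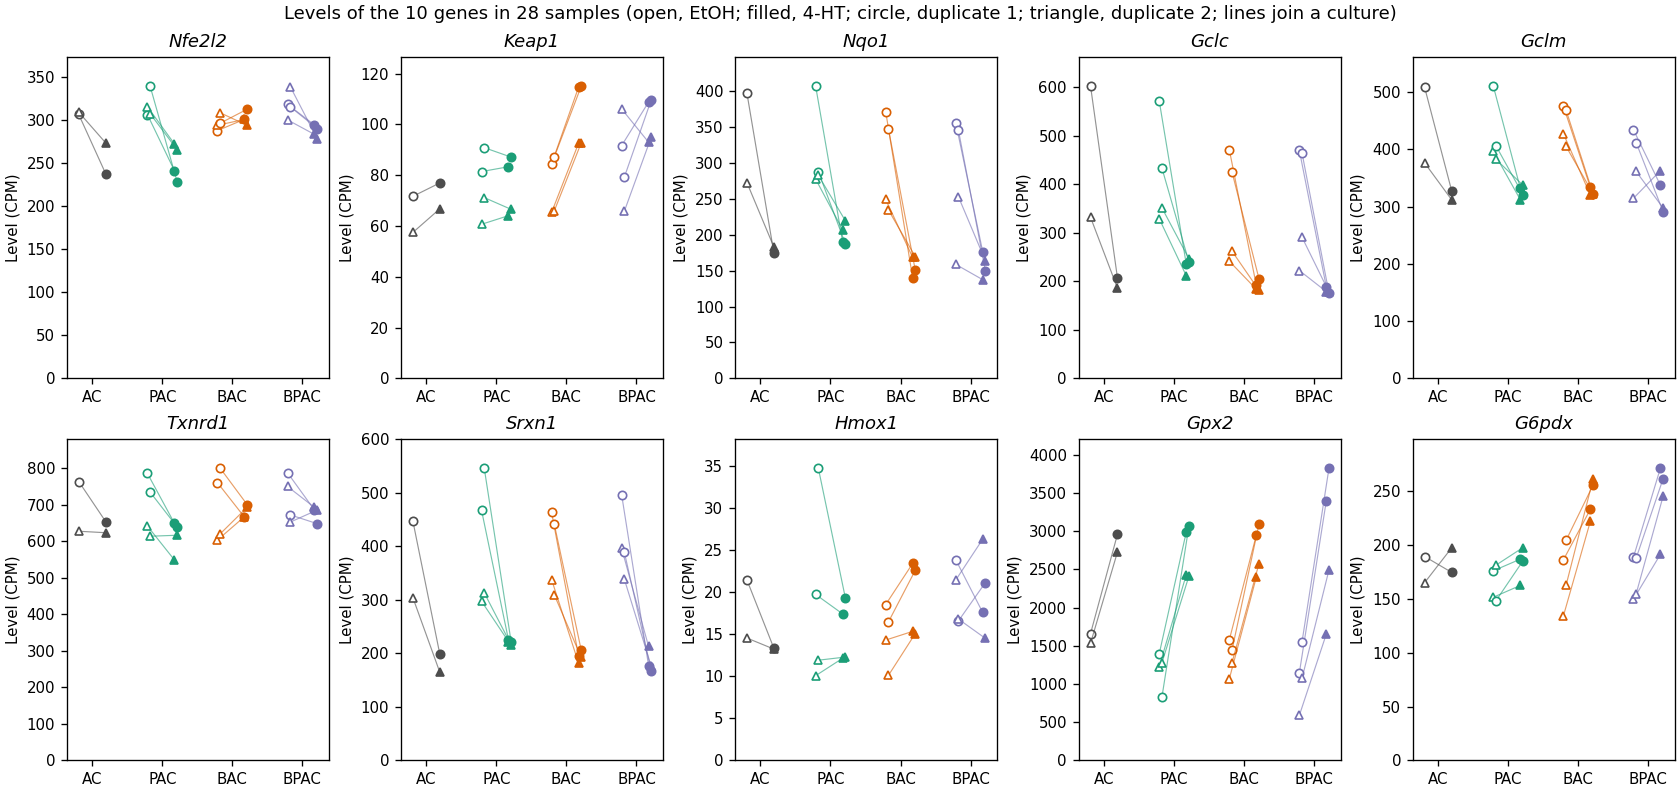
Level of each gene in CPM (vertical axis, from 0) in the 4 genotypes (horizontal axis). Open symbols are EtOH-treated and filled symbols 4-HT-treated samples, circles are duplicate 1 and triangles duplicate 2, and a line joins the samples of 1 culture. *Gclc*, *Nqo1* and *Srxn1* fell and *Gpx2* rose in each of the 14 cultures.

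Among the 10 genes, 2 were called lower and 0 higher with 4-HT in AC, where 4.25% of all 13519 genes were called lower and 3.00% higher. In PAC 4 were lower and 1 higher, against 12.2% and 11.2% of all genes. BAC had 4 lower and 2 higher, against 21.5% and 20.3%, and BPAC 3 lower and 2 higher, against 23.0% and 22.0%. The 10 genes had a median log2 fold change of -0.35 for AC, -0.33 for PAC, -0.0019 for BAC and -0.11 for BPAC, beside medians from -0.036 to 0.0080 over all genes. In BPAC, and for higher calls in PAC and BAC, the shares of the 10 genes were near those of all genes, so that these counts are a description of the 10 and no result about the pathway. Lower calls in 2 or more genotypes were those of *Gclc*, *Srxn1*, *Nqo1* and *Gclm*, higher ones those of *Gpx2* and *G6pdx*, and *Nfe2l2*, *Keap1*, *Txnrd1* and *Hmox1* passed in at most 1 genotype. Without the 2 PAC cultures of duplicate 1, 0 of the 10 genes were called in PAC by edgeR, and 3 had an unadjusted p under 0.05. In a fit of duplicate 2 alone 0.0148% of all genes were called higher in PAC and 0.0370% lower. Few genes of any kind passed there, so the lost calls are no result about the 10. In AC edgeR called 0 genes without duplicate 1 (1 with an unadjusted p under 0.05) and 0 without duplicate 2 (5 with an unadjusted p under 0.05), whereas a fit of duplicate 1 samples alone, over all genotypes, called 3. When counts were scaled by library size alone, the median of all genes was 0.13 to 0.23 on the log2 scale, and the changes under that scaling are to be read relative to it. Under that scaling edgeR called 0 genes in AC (4 had an unadjusted p under 0.05), 1 lower and 1 higher in PAC, and 2 lower and 3 higher in each of BAC and BPAC. Of all genes 2.23%, 5.45%, 15.3% and 15.1% were then called lower in AC, PAC, BAC and BPAC, and 11.2%, 25.1%, 28.7% and 32.0% higher. The counts of the 10 in BAC and BPAC lay near these shares. Over all genes the share of higher calls among all calls then went from 41.4 to 83.3% in AC, from 47.7 to 82.1% in PAC, from 48.6 to 65.3% in BAC and from 48.9 to 68.0% in BPAC.

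**Figure D2:**
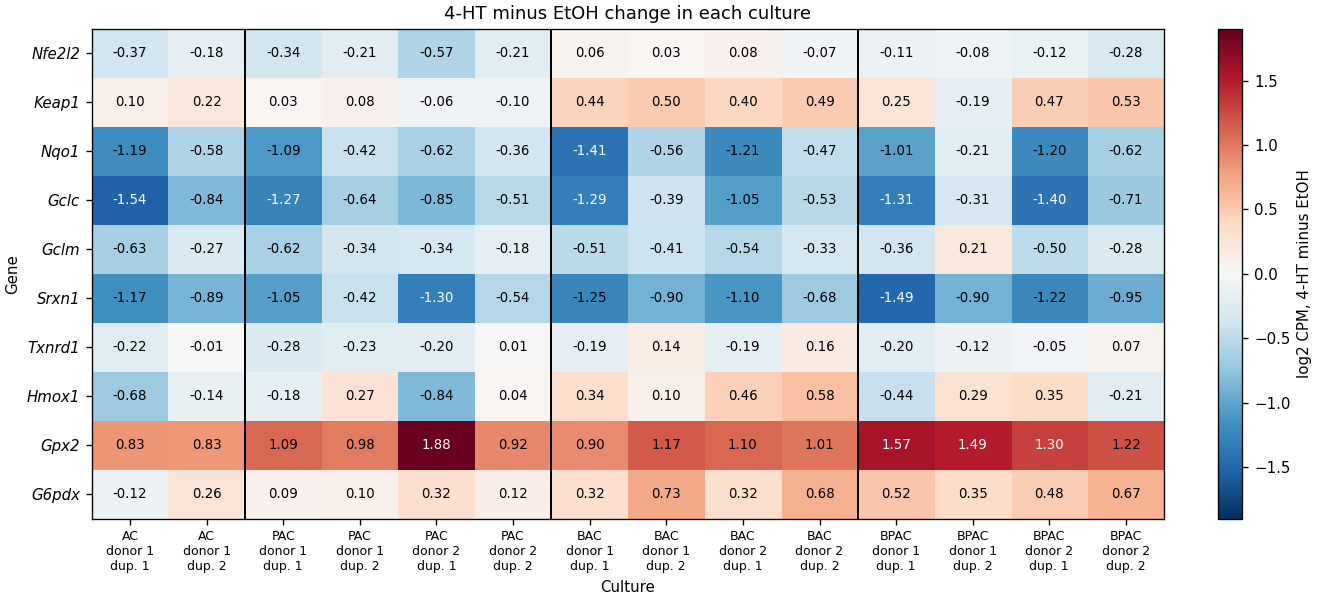
Change in log2 CPM from EtOH to 4-HT (colour and printed value, with a prior count of 2) for each gene (rows) in each of the 14 cultures (columns, grouped by genotype). *Gpx2* ranged from 0.83 to 1.88 and *Srxn1* from -1.49 to -0.42, each with a single direction, while *Txnrd1* and *Hmox1* had both signs.

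*Nfe2l2* (ENSMUSG00000015839, chr2:75675513-75704641, minus strand, GRCm38) changed little. In AC, *Nfe2l2* stood at 307 and 309 CPM with EtOH (duplicates 1 and 2) and 238 and 274 CPM with 4-HT. PAC organoids had 307 and 316 CPM in donor 1 and 339.6 and 308 CPM in donor 2 with EtOH, against 242 and 273 CPM in donor 1 and 229 and 266 CPM in donor 2 with 4-HT. In both genotypes all 4-HT-treated samples lay below all EtOH-treated ones. BAC organoids had 288 and 294 CPM in donor 1 and 297 and 309 CPM in donor 2 with EtOH, against 301 and 301 CPM in donor 1 and 313 and 294 CPM in donor 2 with 4-HT. For BPAC the values were 319 and 300.5 CPM in donor 1 and 316 and 339 CPM in donor 2 with EtOH, against 294 and 284 CPM in donor 1 and 290.4 and 279 CPM in donor 2 with 4-HT. The BAC groups overlapped, and in BPAC the 4-HT-treated samples lay below the EtOH-treated ones. The log2 fold change was called in PAC at -0.33 (SE 0.066, adjusted p = 0.000426), and was not called in AC at -0.27 (SE 0.093, adjusted p = 0.0484), in BAC at 0.026 (SE 0.066, adjusted p = 0.757) or in BPAC at -0.15 (SE 0.066, adjusted p = 0.0525). Without both PAC cultures of duplicate 1 the PAC value was -0.21 (adjusted p = 0.145), and without the culture of PAC donor 2 alone of them it was -0.25 (adjusted p = 0.0136). With library size alone it was -0.11 (adjusted p = 0.201), and the BPAC value turned to 0.061.

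*Keap1* (ENSMUSG00000003308, chr9:21229730-21239361, minus strand) encodes the sensor that holds NRF2 down. In BAC, *Keap1* stood at 84.4 and 65.3 CPM in donor 1 and 87.2 and 65.95 CPM in donor 2 with EtOH, against 115 and 92.5 CPM in donor 1 and 115 and 92.7 CPM in donor 2 with 4-HT. All 4-HT-treated BAC samples were above all EtOH-treated ones, and duplicate 1 was above duplicate 2 in both treatments. BPAC gave 91.6 and 106 CPM in donor 1 and 79.2 and 65.8 CPM in donor 2 with EtOH, against 109 and 92.96 CPM in donor 1 and 109.7 and 95.01 CPM in donor 2 with 4-HT. Here the groups overlapped, because the EtOH-treated sample of donor 1, duplicate 2 was the highest of the EtOH samples. The levels in AC were 57.4 to 71.7 CPM with EtOH and 66.7 to 76.9 CPM with 4-HT, and those in PAC 60.7 to 90.8 CPM and 64.1 to 87.1 CPM. The log2 fold change was 0.45 (SE 0.15, adjusted p = 0.0116) in BAC, which just missed the threshold. With the culture as a block it was 0.46 (adjusted p = 0.000281) and with the duplicate as a covariate 0.46 (adjusted p = 0.000438). Neither AC at 0.15 (SE 0.21, adjusted p = 0.675), PAC at -0.015 (SE 0.15, adjusted p = 0.949) nor BPAC at 0.25 (SE 0.15, adjusted p = 0.157) was called. By library size alone BAC was called at 0.62 (adjusted p = 0.00107) and BPAC at 0.46 (adjusted p = 0.00974), and PAC turned to 0.21. An antisense gene, *Gm16754*, shares 510 exon bases with *Keap1* (10.9% of them), and whether reads were counted by strand is not stated.

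Glutathione is made in 2 steps, and the first, which sets the rate, is catalysed by glutamate-cysteine ligase, whose catalytic subunit fell with 4-HT in all 4 genotypes and whose modifier subunit fell in PAC and BAC. *Gclc* (ENSMUSG00000032350, chr9:77754535-77794485, plus strand) encodes the catalytic subunit. In AC, *Gclc* stood at 602 and 332 CPM with EtOH (duplicates 1 and 2) and 207 and 186 CPM with 4-HT. PAC organoids held 572 and 329 CPM in donor 1 and 433 and 351 CPM in donor 2 with EtOH, against 236 and 212 CPM in donor 1 and 240.2 and 247 CPM in donor 2 with 4-HT. In both genotypes the 4-HT-treated samples lay below all EtOH-treated ones. BAC organoids held 472 and 242 CPM in donor 1 and 426 and 262 CPM in donor 2 with EtOH, against 193 and 184 CPM in donor 1 and 206 and 182 CPM in donor 2 with 4-HT. For BPAC the counts came to 470.2 and 222 CPM in donor 1 and 464 and 291 CPM in donor 2 with EtOH, against 189 and 179 CPM in donor 1 and 176 and 178 CPM in donor 2 with 4-HT. The groups did not overlap in any genotype, and the EtOH-treated samples of duplicate 1 were above those of duplicate 2 throughout. *Gclc* passed the main test in all 4 genotypes. Its log2 fold change was -1.25 (SE 0.32, adjusted p = 0.00952) for AC, -0.85 (SE 0.23, adjusted p = 0.00489) for PAC, -0.88 (SE 0.23, adjusted p = 0.00212) for BAC and -1.004 (SE 0.23, adjusted p = 0.00056) in BPAC. The AC call was lost with limma-voom at -1.19 (adjusted p = 0.0119) and with each genotype fitted alone at -1.26 (adjusted p = 0.0247). It was also lost without both PAC cultures of duplicate 1 at -1.25 (adjusted p = 0.0109). In a fit of a single duplicate each AC arm is 1 library and is assumed to vary like the other genotypes, which also holds when an AC culture is left out. The fall was larger in duplicate 1, where the fits of that duplicate alone gave -1.56, -1.07, -1.15 and -1.37 for AC, PAC, BAC and BPAC, all called. Duplicate 2 alone gave -0.84, -0.57, -0.46 and -0.52, with adjusted p from 0.0131 to 0.073 and no call. The PAC call was lost without duplicate 1 of donor 1 at -0.67 (adjusted p = 0.0545), without duplicate 1 of donor 2 at -0.85 (adjusted p = 0.0272) and without both at -0.57 (adjusted p = 0.281). The BAC call was lost without duplicate 1 of donor 1 at -0.70 (adjusted p = 0.0277) and of donor 2 at -0.81 (adjusted p = 0.0157). The AC call was near the threshold, and leaving out AC duplicate 1 gave -0.84 (adjusted p = 0.333) and AC duplicate 2 -1.54 (adjusted p = 0.0591). Leaving out a whole donor ended the call in PAC at -0.69 (adjusted p = 0.125) and -1.01 (adjusted p = 0.0572), in BAC at -0.83 (adjusted p = 0.0487) and -0.92 (adjusted p = 0.0341) for donors 1 and 2, and in BPAC at -0.91 (adjusted p = 0.0302) for donor 2. With library size alone *Gclc* stood at -1.03 (adjusted p = 0.024) for AC, -0.63 (adjusted p = 0.0305) for PAC and -0.71 (adjusted p = 0.012) for BAC, and BPAC kept its call at -0.80 (adjusted p = 0.00511).

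*Gclm* (ENSMUSG00000028124, chr3:122245557-122270732, plus strand) encodes the modifier subunit, which lowers the enzyme's need for glutamate. In BAC, *Gclm* stood at 476 and 427 CPM in donor 1 and 469 and 405 CPM in donor 2 with EtOH, against 334 and 320.4 CPM in donor 1 and 323 and 323 CPM in donor 2 with 4-HT. These groups did not overlap. In BPAC, *Gclm* stood at 434 and 315 CPM in donor 1 and 412 and 361 CPM in donor 2 with EtOH, against 338 and 363 CPM in donor 1 and 291 and 298 CPM in donor 2 with 4-HT. In this genotype donor 1, duplicate 2 was the only culture of the 14 in which *Gclm* was higher with 4-HT, by 0.21 on the log2 scale. AC held 376 to 508 CPM with EtOH and 312 to 328 CPM with 4-HT, and PAC 383 to 510.5 CPM and 312 to 337 CPM. *Gclm* was called in PAC at -0.38 (SE 0.11, adjusted p = 0.0073) and in BAC at -0.45 (SE 0.11, adjusted p = 0.00102), and not in AC at -0.47 (SE 0.15, adjusted p = 0.0356) or BPAC at -0.24 (SE 0.11, adjusted p = 0.0593). Without its culture of donor 1, duplicate 2, BPAC was called at -0.38 (adjusted p = 0.00544). The PAC value without both cultures of duplicate 1 was -0.26 (adjusted p = 0.286), and the call was also lost without duplicate 1 of donor 1 at -0.29 (adjusted p = 0.0721), duplicate 2 of donor 1 at -0.40 (adjusted p = 0.0186) or duplicate 1 of donor 2 at -0.39 (adjusted p = 0.0295). Without the whole of donor 1 PAC stood at -0.26 (adjusted p = 0.214), without donor 2 at -0.49 (adjusted p = 0.045) and with 1 summed library per donor and treatment at -0.40 (adjusted p = 0.0173). In BAC the call was lost without duplicate 1 of donor 2 at -0.42 (adjusted p = 0.01), without donor 1 at -0.44 (adjusted p = 0.0463) and without donor 2 at -0.47 (adjusted p = 0.0311). Library size alone gave -0.16 (adjusted p = 0.276) for PAC and -0.28 (adjusted p = 0.0393) for BAC. After 4-HT *Gclc* lay at 212 to 247 CPM in PAC, above all samples of the other genotypes (176 to 207 CPM), while *Gclm* lay at 291 to 363 CPM over all 14 samples. *Gclm* shares 296 exon bases (4.71%) with *Gm17494* on the other strand, and 244 (3.88%) with the pseudogene *Gm6061*, so that its counts could mix with theirs.

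*Nqo1* (ENSMUSG00000003849, chr8:107388225-107403206, minus strand) encodes the quinone reductase widely used as a readout of NRF2 activity. In AC, *Nqo1* stood at 397 and 273 CPM with EtOH (duplicates 1 and 2) and 175 and 183 CPM with 4-HT. PAC samples held 407 and 278 CPM in donor 1 and 288 and 283 CPM in donor 2 with EtOH, against 191 and 207 CPM in donor 1 and 188 and 219.8 CPM in donor 2 with 4-HT. The groups did not overlap, and PAC donor 1, duplicate 1 stood above the other EtOH-treated PAC samples. BAC samples held 372 and 249 CPM in donor 1 and 348 and 235 CPM in donor 2 with EtOH, against 140.1 and 169 CPM in donor 1 and 150.3 and 169.6 CPM in donor 2 with 4-HT. For BPAC the levels were 356 and 159 CPM in donor 1 and 346 and 253 CPM in donor 2 with EtOH, against 177 and 138 CPM in donor 1 and 150.1 and 164 CPM in donor 2 with 4-HT. BAC did not overlap, while in BPAC the EtOH-treated sample of donor 1, duplicate 2 fell within the 4-HT range. The log2 fold change was called in BAC at -0.94 (SE 0.19, adjusted p = 0.000234) and in BPAC at -0.83 (SE 0.19, adjusted p = 0.000768), and was close to the threshold in AC at -0.91 (SE 0.27, adjusted p = 0.0234) and in PAC at -0.64 (SE 0.19, adjusted p = 0.0109). With the culture as a block PAC was called at -0.62 (adjusted p = 0.00692), and with the duplicate as a covariate both were, AC at -0.88 (adjusted p = 0.00924) and PAC at -0.62 (adjusted p = 0.0048). Leaving out donor 1 ended the BAC call at -0.86 (adjusted p = 0.0224), and leaving out donor 2 the BPAC call at -0.71 (adjusted p = 0.0463). Duplicate 1 alone gave -1.202, -0.87, -1.29 and -1.11 in AC (again 1 library per arm), PAC, BAC and BPAC, all called, and duplicate 2 alone -0.58, -0.39, -0.52 and -0.45, none called. The fall was thus seen in 14 of 14 cultures but was smaller in duplicate 2. Leaving out BPAC donor 2, duplicate 1 ended the BPAC call at -0.68 (adjusted p = 0.0126), as did library size alone at -0.62 (adjusted p = 0.01), and in PAC the value without both duplicate 1 cultures was -0.39 (adjusted p = 0.396).

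*Srxn1* (ENSMUSG00000032802, chr2:152105516-152111376, plus strand) encodes sulfiredoxin, which restores over-oxidized peroxiredoxins. In AC, *Srxn1* stood at 447 and 304 CPM with EtOH (duplicates 1 and 2) and 199 and 165 CPM with 4-HT. PAC libraries held 467 and 297 CPM in donor 1 and 546 and 313 CPM in donor 2 with EtOH, against 225 and 222 CPM in donor 1 and 221 and 216 CPM in donor 2 with 4-HT. BAC libraries held 463 and 338 CPM in donor 1 and 441 and 309 CPM in donor 2 with EtOH, against 195 and 182 CPM in donor 1 and 206 and 192 CPM in donor 2 with 4-HT. In these 3 genotypes every 4-HT-treated sample lay below every EtOH-treated one. BPAC libraries held 496 and 396 CPM in donor 1 and 389 and 338 CPM in donor 2 with EtOH, against 177 and 213 CPM in donor 1 and 167 and 176 CPM in donor 2 with 4-HT. The BPAC groups did not overlap either. *Srxn1* was called in all 4 genotypes, at -1.05 (SE 0.24, adjusted p = 0.00402) for AC, -0.88 (SE 0.17, adjusted p = 0.000304) for PAC, -1.001 (SE 0.17, adjusted p = 2.23e-05) for BAC and -1.15 (SE 0.17, adjusted p = 3.22e-06) for BPAC on the log2 scale. It was the only 1 of the 10 genes that was called lower in BAC and BPAC within each duplicate: duplicate 2 alone gave -0.79 (adjusted p = 0.00108) and -0.92 (adjusted p = 0.000449), against -1.15 and -1.37 in duplicate 1 alone. In AC and PAC duplicate 2 alone gave -0.88 (adjusted p = 0.0479) and -0.48 (adjusted p = 0.0622), and duplicate 1 alone -1.19 and -1.17. The AC call was lost without duplicate 1 at -0.89 (adjusted p = 0.161), without duplicate 2 at -1.17 (adjusted p = 0.054) and with library size alone at -0.83 (adjusted p = 0.013), and the PAC call without donor 2 at -0.77 (adjusted p = 0.0295). The PAC value without both cultures of duplicate 1 was -0.48 (adjusted p = 0.141).

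*Txnrd1* (ENSMUSG00000020250, chr10:82833951-82897712, plus strand) encodes the cytosolic thioredoxin reductase, and did not pass the test in any genotype. It ranged from 603 to 799.8 CPM with EtOH (median 703) and from 549 to 700.3 CPM with 4-HT (median 659.8), with overlap in every genotype. The log2 fold changes were -0.12 (SE 0.14, adjusted p = 0.6) for AC, -0.18 (SE 0.097, adjusted p = 0.16) for PAC, -0.030 (SE 0.097, adjusted p = 0.812) for BAC and -0.078 (SE 0.097, adjusted p = 0.514) for BPAC. With library size alone the 4 values were positive, from 0.046 to 0.14, where the medians of all genes had moved to between 0.13 and 0.23. In duplicate 1 the change was negative in 7 of 7 cultures, and in duplicate 2 it was positive in 4 of 7. *Hmox1* (ENSMUSG00000005413, chr8:75093621-75100589, plus strand) encodes haem oxygenase 1, which BACH1 also represses. It was the lowest of the 10 genes, at 10.1 to 34.8 CPM with EtOH and 12.1 to 26.3 CPM with 4-HT, and was not called in any genotype. Its log2 fold changes were -0.44 (SE 0.41, adjusted p = 0.512) for AC, -0.32 (SE 0.29, adjusted p = 0.404) for PAC, 0.37 (SE 0.29, adjusted p = 0.29) for BAC and 0.016 (SE 0.29, adjusted p = 0.965) for BPAC. Its SEs were the largest of the 10 genes in each genotype. The highest *Hmox1* value was that of PAC donor 2, duplicate 1 with EtOH, and without both PAC cultures of duplicate 1 the PAC value turned to 0.15 (adjusted p = 0.792).

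*Gpx2* (ENSMUSG00000042808, chr12:76792333-76795554, minus strand) moved in the other direction. In AC, *Gpx2* stood at 1660.3 and 1534 CPM with EtOH (duplicates 1 and 2) and 2961 and 2729 CPM with 4-HT. PAC cultures had 1396 and 1228 CPM in donor 1 and 830.1 and 1278 CPM in donor 2 with EtOH, against 2984 and 2427 CPM in donor 1 and 3062 and 2411 CPM in donor 2 with 4-HT. The lowest EtOH value in PAC was that of donor 2, duplicate 1. BAC cultures had 1576 and 1065 CPM in donor 1 and 1444 and 1276 CPM in donor 2 with EtOH, against 2944 and 2394 CPM in donor 1 and 3089 and 2574 CPM in donor 2 with 4-HT. BPAC cultures had 1144 and 589 CPM in donor 1 and 1552 and 1074 CPM in donor 2 with EtOH, against 3396 and 1652 CPM in donor 1 and 3825 and 2493 CPM in donor 2 with 4-HT. In all 4 genotypes each 4-HT-treated sample was above each EtOH-treated one, and BPAC donor 1, duplicate 2 was lowest in both treatments. *Gpx2* was called higher in PAC at 1.202 (SE 0.23, adjusted p = 0.000362), in BAC at 1.04 (SE 0.23, adjusted p = 0.000606) and in BPAC at 1.38 (SE 0.23, adjusted p = 2.26e-05), which are 2.30-, 2.05- and 2.61-fold. AC was not called at 0.83 (SE 0.33, adjusted p = 0.0823). Of the alternatives tried, only the fit with the culture as a block called it, at 0.83 (adjusted p = 0.00207). Duplicate 1 alone gave 0.82, 1.45, 1.02 and 1.41, and duplicate 2 alone 0.83, 0.95, 1.09 and 1.32 in AC, PAC, BAC and BPAC. The difference between the duplicates was 0.15 and was not called, with an approximate 95% interval from -0.26 to 0.55. The PAC value without both cultures of duplicate 1 was 0.95 (adjusted p = 0.0859). Leaving out a whole donor ended the PAC call, at 1.37 (adjusted p = 0.0103) without donor 1 and 1.04 (adjusted p = 0.0451) without donor 2, and the BAC call, at 1.06 (adjusted p = 0.024) and 1.01 (adjusted p = 0.0311). *Gpx2* lies within *Fntb* on the opposite strand without shared exon bases. A pseudogene, *Gpx2-ps1*, was counted separately at group means of 0.330 to 1.23 CPM, and how reads shared with it were assigned is not given in the sources used here.

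*G6pdx* (ENSMUSG00000031400, chrX:74409483-74429194, minus strand) encodes glucose-6-phosphate dehydrogenase, which supplies NADPH for glutathione and thioredoxin reduction. In BAC, *G6pdx* stood at 186 and 134 CPM in donor 1 and 204 and 163 CPM in donor 2 with EtOH, against 233 and 222 CPM in donor 1 and 256 and 261 CPM in donor 2 with 4-HT. BPAC samples held 189 and 149.7 CPM in donor 1 and 188 and 155 CPM in donor 2 with EtOH, against 272 and 191 CPM in donor 1 and 262 and 245 CPM in donor 2 with 4-HT. In both genotypes all 4-HT-treated samples were above all EtOH-treated ones. In AC, *G6pdx* stood at 189 and 165 CPM with EtOH (duplicates 1 and 2) and 175 and 197 CPM with 4-HT. In PAC, *G6pdx* stood at 176 and 152 CPM in donor 1 and 148 and 181 CPM in donor 2 with EtOH, against 187 and 163 CPM in donor 1 and 185 and 198 CPM in donor 2 with 4-HT. These 2 genotypes overlapped. *G6pdx* was called higher in BAC at 0.50 (SE 0.12, adjusted p = 0.00134) and BPAC at 0.51 (SE 0.12, adjusted p = 0.00101), and not in AC at 0.070 (SE 0.17, adjusted p = 0.837) or PAC at 0.16 (SE 0.12, adjusted p = 0.332). Leaving out BAC donor 2, duplicate 2 ended the BAC call at 0.44 (adjusted p = 0.0165), and leaving out BPAC donor 2, duplicate 2 the BPAC call at 0.46 (adjusted p = 0.0109). The BAC call was also lost without donor 1 at 0.49 (adjusted p = 0.0259) and without donor 2 at 0.51 (adjusted p = 0.0269), and the BPAC call without donor 2 at 0.45 (adjusted p = 0.0475). Within duplicates, BAC rose by 0.70 (adjusted p = 0.00816) in duplicate 2, a call, and stood at 0.34 (adjusted p = 0.0121) in duplicate 1. BPAC stood at 0.49 (adjusted p = 0.00147) in duplicate 1, a call, and at 0.52 (adjusted p = 0.0312) in duplicate 2. The gene shares 418 exon bases (13.6%) with *Ikbkg* on the other strand, so that counts not separated by strand could mix.

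**Figure D3:**
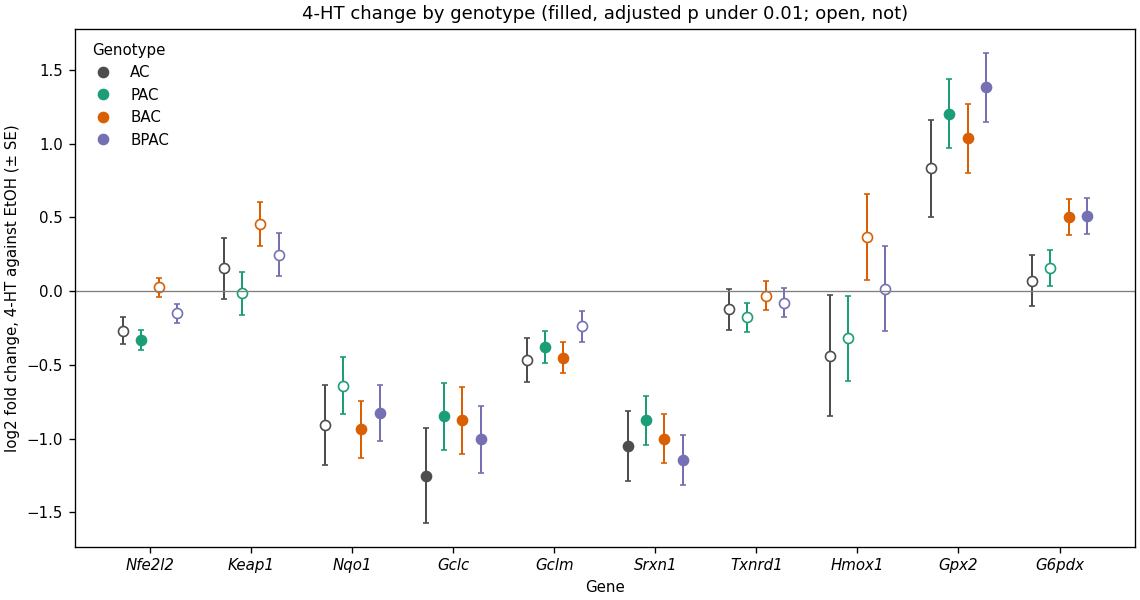
Log2 fold change of 4-HT against EtOH from edgeR (vertical axis, bars are ± SE) for each gene (horizontal axis) in AC (2 samples per treatment) and PAC, BAC and BPAC (4 per treatment). Filled points passed an adjusted p of 0.01: *Gclc* and *Srxn1* did in all 4 genotypes, *Gpx2* in PAC, BAC and BPAC, and *Txnrd1*, *Hmox1* and *Keap1* in none.

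The question whether mutant *Braf* modified the response was addressed by the difference between the mean 4-HT change of the genotypes with the allele (BAC, BPAC) and those without (AC, PAC). None of the 10 genes passed with edgeR (0 of 10, and 2 with an unadjusted p under 0.05), beside 6.61% of all genes in either direction, while limma-voom called 0 and DESeq2 1, *Nfe2l2*. The differences closest to the threshold were those of *Nfe2l2* at 0.24 (SE 0.073, adjusted p = 0.0308) and *G6pdx* at 0.39 (SE 0.14, adjusted p = 0.0539). With the culture as a block *G6pdx* was called at 0.40 (adjusted p = 0.00603), whereas with the duplicate as a covariate 0 of the 10 genes were called. For *Gclc* the difference was 0.11 with an approximate 95% interval from -0.38 to 0.60, for *Srxn1* -0.11 (-0.47 to 0.25), for *Nqo1* -0.11 (-0.53 to 0.31) and for *Gpx2* 0.19 (-0.31 to 0.70). These intervals leave room for differences in either direction. With EtOH, before recombination, 0 of the 10 genes differed with the *Braf* allele by edgeR, limma-voom or DESeq2 and 0 had an unadjusted p under 0.05, beside 0.0296% of all genes called. After 4-HT 3 genes were called higher with the allele and 0 lower, beside 15.6% of all genes higher and 14.6% lower. These were *Keap1* at 0.48 (SE 0.12, adjusted p = 0.00197), *G6pdx* at 0.40 (SE 0.098, adjusted p = 0.00213) and *Nfe2l2* at 0.21 (SE 0.052, adjusted p = 0.00201). For *Keap1* the 8 samples with the allele lay at 92.5 to 115 CPM and the 6 without it at 64.1 to 87.1 CPM, with no overlap, whereas *G6pdx* (191 to 272 against 163 to 198 CPM) overlapped and *Nfe2l2* (279 to 313 against 229 to 274 CPM) did not. Without both PAC cultures of duplicate 1 *Keap1* gave 0.58 (adjusted p = 0.000577), *G6pdx* 0.41 (adjusted p = 0.00678) and *Nfe2l2* 0.17 (adjusted p = 0.0167). In duplicate 2 alone none of the 3 was called, at 0.50 (adjusted p = 0.0305), 0.28 (adjusted p = 0.139) and 0.091 (adjusted p = 0.439), against 0.47, 0.50 and 0.34 in duplicate 1 alone. Leaving out AC duplicate 2 ended the call of *Keap1* at 0.43 (adjusted p = 0.0227), and leaving out AC duplicate 1 ended those of *G6pdx* at 0.35 (adjusted p = 0.0255) and *Nfe2l2* at 0.16 (adjusted p = 0.0437). The call of *Nfe2l2* was also lost without BAC donor 1 at 0.22 (adjusted p = 0.0105) or BAC donor 2 at 0.21 (adjusted p = 0.0134). That of *G6pdx* was also lost without PAC donor 1 at 0.37 (adjusted p = 0.0135), BAC donor 2 at 0.35 (adjusted p = 0.0152) or BPAC donor 2 at 0.36 (adjusted p = 0.0125). In duplicate 1 the 4-HT-treated libraries with the allele were also deeper, at 37438687 to 40068718 counts against 26594188 to 30306835, and the part of depth was not tested. Mature colonocyte markers moved with the allele too: after 4-HT their summed level was 1549 to 3099 CPM in BAC and 881 to 2996 CPM in BPAC, against 3167 to 4199 CPM in AC and 3554 to 4775 CPM in PAC, and 3 of the 8 were called for a larger fall. For the *Trp53* allele 0 of the 10 genes were called for a different change by edgeR, limma-voom or DESeq2, and 0 had an unadjusted p under 0.05, beside 0.0148% of all genes called. The differences ran from -0.19 to 0.36 on the log2 scale. Approximate 95% intervals were -0.15 to 0.86 for *Gpx2* and -0.35 to 0.63 for *Gclc*, which leaves room for differences in either direction.

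The duplicates of a donor, described by the study as distinct passages of its culture, differed already with EtOH. Of the 10 genes 6 were called higher in duplicate 1 with EtOH, beside 10.2% of all genes, and 4 without the PAC cultures of duplicate 1, where *Hmox1* stood at 0.35 (adjusted p = 0.147) and *Txnrd1* at 0.22 (adjusted p = 0.0242). *Gclc* lay at 426 to 602 CPM in duplicate 1 (median 470.2) and 222 to 351 CPM in duplicate 2 (median 291), with no overlap between 7 donors each and a log2 difference of 0.77 (SE 0.067, adjusted p = 4.06e-08). *Nqo1* at 288 to 407 against 159 to 283 CPM did not overlap either, with 0.55 (SE 0.092, adjusted p = 0.000108). The others called were *Srxn1* at 0.50 (SE 0.074, adjusted p = 2.5e-05), *Hmox1* at 0.62 (SE 0.18, adjusted p = 0.00907), *Gclm* at 0.27 (SE 0.057, adjusted p = 0.000911) and *Txnrd1* at 0.24 (SE 0.053, adjusted p = 0.00166). After 4-HT the levels of *Gclc* came together, at 176 to 240 CPM in duplicate 1 and 178 to 247 CPM in duplicate 2. The 4-HT change of *Gclc* was larger in duplicate 1 in 7 of 7 donors, with a difference of -0.69 (SE 0.094, adjusted p = 0.000919), and this was called, beside 0.0518% of all genes. *Nqo1* at -0.64 (SE 0.13, adjusted p = 0.0369) and *Srxn1* at -0.48 (SE 0.10, adjusted p = 0.0622) were not called, and with the culture as a block both were, at -0.64 (adjusted p = 0.00305) and -0.47 (adjusted p = 0.00751). In all 3 genes the EtOH level was higher in duplicate 1 in 7 of 7 donors, and the 4-HT levels of the duplicates overlapped. Without both PAC cultures of duplicate 1 *Gclc* gave -0.76 (adjusted p = 0.00266). The comparison of duplicates was added after the values were seen.

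**Figure D4:**
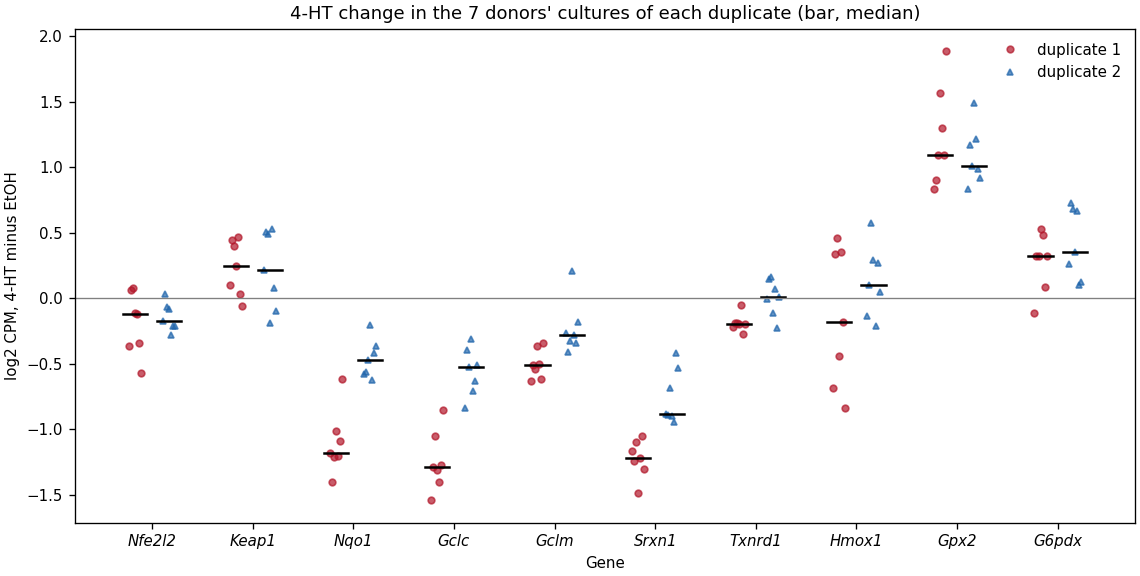
Change in log2 CPM from EtOH to 4-HT (vertical axis) for each gene (horizontal axis), with 1 point for each of the 7 donors in duplicate 1 (circles) and duplicate 2 (triangles) and a bar at the median. *Gclc* ran from -1.54 to -0.85 in duplicate 1 and from -0.84 to -0.31 in duplicate 2, whereas the ranges of *Gpx2* overlapped.

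Other reported NRF2 targets fell more often than they rose. Of 36 such genes, all counted, 9 were called lower and 0 higher in AC, 12 and 0 in PAC, 17 and 1 in BAC, and 17 and 2 in BPAC. Over all genes 4.25%, 12.2%, 21.5% and 23.0% were called lower for AC, PAC, BAC and BPAC, and 3.00%, 11.2%, 20.3% and 22.0% higher, so that the count over all genes rose in the same order. The median log2 fold changes of the 36 were -0.47, -0.27, -0.40 and -0.49, beside the medians near 0 over all genes given above. In the mean 4-HT change of the 4 genotypes 20 fell and 3 rose, beside 30.6% of all genes lower and 28.8% higher. The largest falls were those of *Abcc2*, an export pump for conjugates, at -1.76 (SE 0.18, adjusted p = 5.21e-09), *Ugdh*, which makes the sugar donor for glucuronidation, at -1.66 (SE 0.094, adjusted p = 3.13e-13), and the glutathione transferase *Gstm3* at -1.48 (SE 0.086, adjusted p = 4.35e-13). The 3 that rose did so by less: *Abcc4* at 0.30 (SE 0.098, adjusted p = 0.00821), *Blvra*, a biliverdin reductase, at 0.26 (SE 0.062, adjusted p = 0.00062) and *Abcc1* at 0.20 (SE 0.059, adjusted p = 0.00355). Of the genes of the pentose phosphate pathway beside *G6pdx*, *Pgd* and *Tkt* were not called in any genotype, and *Taldo1* was called lower in AC, BAC and BPAC. Without both PAC cultures of duplicate 1, 1 gene was called lower in PAC. In AC edgeR called 0 of them without duplicate 1 (11 with an unadjusted p under 0.05) and 0 without duplicate 2 (15 with an unadjusted p under 0.05). In duplicate 2 alone 0 were called in PAC (11 with an unadjusted p under 0.05), where 0.0148% of all genes were called higher and 0.0370% lower. AC, with 1 library per treatment there, had a median of -0.40. In each of BAC and BPAC 11 were called lower and 1 higher, where 10.4% and 11.4% of all genes were called lower. With the culture as a block 15, 14, 19 and 19 were called lower for AC, PAC, BAC and BPAC, and 0, 0, 1 and 3 higher, beside 8.99%, 18.4%, 26.7% and 27.7% of all genes lower and 7.45%, 16.5%, 25.3% and 26.7% higher. The mean then gave 20 lower and 4 higher. Library size alone gave medians of -0.25, -0.050, -0.23 and -0.28, below the shifted medians of all genes, and 5, 6, 14 and 12 were called lower and 0, 3, 3 and 5 higher, with 17 lower and 8 higher in the mean. Under that scaling 2.23%, 5.45%, 15.3% and 15.1% of all genes were called lower for these genotypes and 11.2%, 25.1%, 28.7% and 32.0% higher, and 19.7% were lower and 43.2% higher in the mean.

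**Figure D5:**
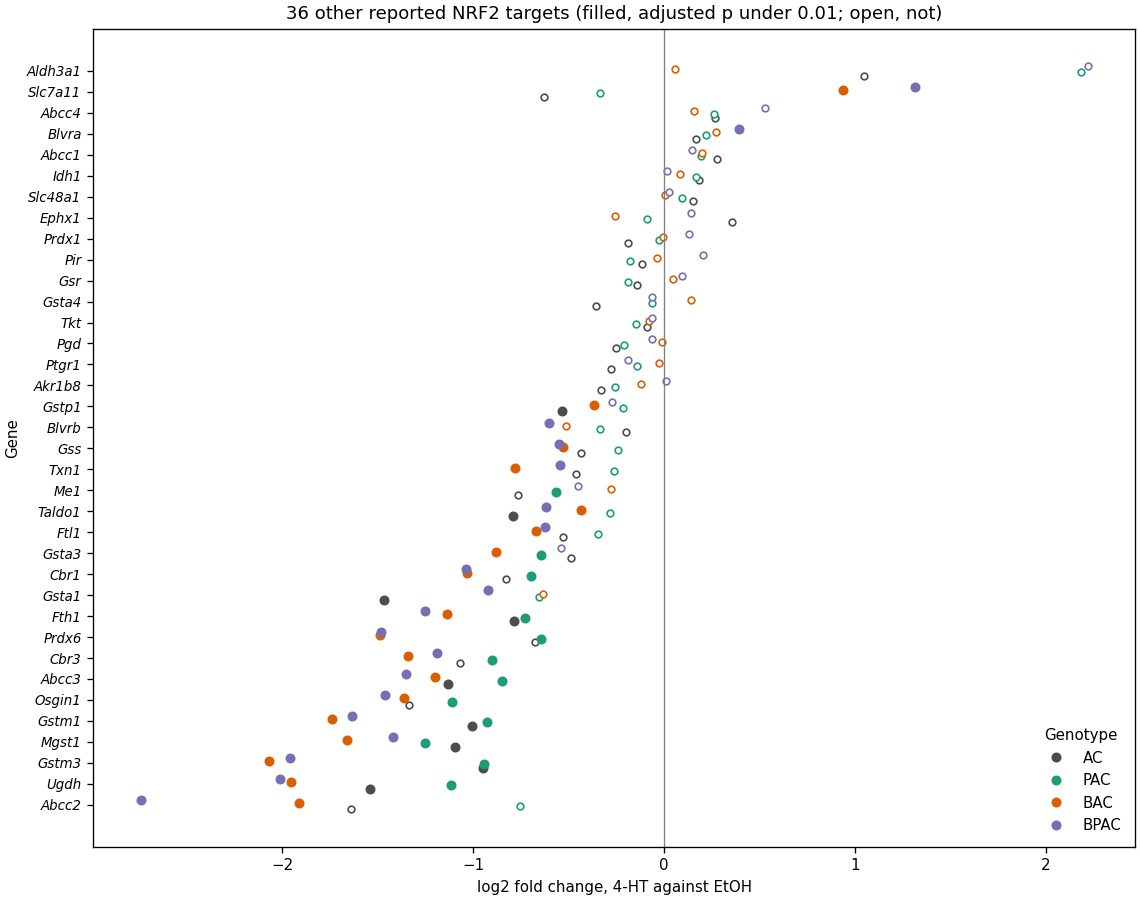
Log2 fold change of 4-HT against EtOH (horizontal axis) for the 36 other reported NRF2 targets (vertical axis, ordered by the mean over genotypes), with 1 point per genotype. Filled points passed an adjusted p of 0.01. *Abcc2*, *Ugdh* and *Gstm3* lie at the bottom, and *Slc7a11* has filled points in BAC and BPAC to the right of 0 and open points in AC and PAC to the left.

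*Slc7a11*, named here because of its values, encodes the cystine transporter that feeds glutathione synthesis. In AC, *Slc7a11* stood at 51.4 and 68.3 CPM with EtOH (duplicates 1 and 2) and 27.2 and 50.3 CPM with 4-HT. In PAC, *Slc7a11* stood at 46.8 and 61.03 CPM in donor 1 and 27.6 and 46.6 CPM in donor 2 with EtOH, against 26.4 and 42.1 CPM in donor 1 and 24.5 and 51.3 CPM in donor 2 with 4-HT. In BAC, *Slc7a11* stood at 37.6 and 40.8 CPM in donor 1 and 28.6 and 46.2 CPM in donor 2 with EtOH, against 57.1 and 82.6 CPM in donor 1 and 61.2 and 93.01 CPM in donor 2 with 4-HT. In BPAC, *Slc7a11* stood at 28.7 and 21.1 CPM in donor 1 and 31.3 and 31.7 CPM in donor 2 with EtOH, against 59.5 and 83.5 CPM in donor 1 and 49.5 and 87.7 CPM in donor 2 with 4-HT. With the *Braf* allele every 4-HT-treated sample was above every EtOH-treated one of its genotype, and duplicate 2 was above duplicate 1 with 4-HT. Its log2 fold change was 0.94 (SE 0.26, adjusted p = 0.00389) in BAC and 1.31 (SE 0.26, adjusted p = 0.00017) in BPAC, both called, and -0.63 (SE 0.37, adjusted p = 0.258) in AC and -0.34 (SE 0.26, adjusted p = 0.326) in PAC, neither called. The difference with the *Braf* allele was 1.61 (SE 0.29, adjusted p = 0.000654), and it was called under each alternative tried. The BAC call alone was lost without duplicate 2 of donor 1 at 0.91 (adjusted p = 0.0206), without duplicate 1 of donor 2 at 0.90 (adjusted p = 0.0172) and without duplicate 2 of donor 2 at 0.91 (adjusted p = 0.0163). It was lost without donor 1 at 1.04 (adjusted p = 0.0476) and without donor 2 at 0.83 (adjusted p = 0.0886), and the BPAC call was lost without its donor 1 at 1.12 (adjusted p = 0.0232). *Slc7a11* was the only one of the 36 genes called for a higher change with the allele, while *Gstm1* at -0.72 (SE 0.12, adjusted p = 0.0004), *Gstm3* at -1.07 (SE 0.17, adjusted p = 0.000168) and *Prdx6*, a peroxiredoxin, at -0.82 (SE 0.20, adjusted p = 0.00643) were called for a lower one. These 4 of 36 stand beside 6.61% of all genes, and with the culture as a block 1 was higher and 5 were lower, beside 1891 of all 13519 genes. The cystine transporter thus rose in BAC and BPAC, where the catalytic ligase subunit *Gclc* fell.

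Of 18 antioxidant enzymes not counted as NRF2 targets here, 4 were called lower and 0 higher in AC, 4 and 0 in PAC, 7 and 1 in BAC, and 8 and 2 in BPAC, with medians of -0.20, -0.21, -0.34 and -0.32. The shares of all genes called lower were 4.25%, 12.2%, 21.5% and 23.0% in these genotypes. In the mean of the genotypes 10 fell and 2 rose, beside 30.6% of all genes lower and 28.8% higher. With library size alone the mean gave 8 lower and 7 higher, and the medians were 0.024, 0.011, -0.18 and -0.10 where the median of all genes in the mean moved from -0.020 to 0.19 and the share of higher calls among all calls from 48.5 to 68.7%. The largest falls were glutaredoxin (*Glrx*) at -1.72 (SE 0.082, adjusted p = 2.2e-14), *Ggt1*, which breaks down extracellular glutathione, at -1.22 (SE 0.37, adjusted p = 0.00504) and catalase (*Cat*) at -1.04 (SE 0.052, adjusted p = 5.08e-14). Both rises were smaller, *Prdx4*, a peroxiredoxin of the endoplasmic reticulum, at 0.46 (SE 0.096, adjusted p = 0.00017) and the stress-induced *Sesn2* at 0.33 (SE 0.063, adjusted p = 6.23e-05). Of the other glutathione peroxidases in the list, *Gpx1* was not called in any genotype, *Gpx4* was called lower in AC, BAC and BPAC, and *Gpx3* was at -0.99 (SE 0.22, adjusted p = 0.000393). With the culture as a block 7, 5, 9 and 9 of the 18 were called lower for AC, PAC, BAC and BPAC (and 0, 1, 2 and 2 higher), with 10 lower and 3 higher in the mean, and without both PAC cultures of duplicate 1, 2 were called lower in PAC.

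Of the regulators of NRF2, 14 of the 15 listed were counted. Of these edgeR called 0 in AC (3 with an unadjusted p under 0.05), 2 lower and 1 higher in PAC, 2 lower and 0 higher in BAC, and 4 lower and 2 higher in BPAC, and 6 fell and 3 rose in the mean of the genotypes. Over all genes 4.25%, 12.2%, 21.5% and 23.0% were called lower in AC, PAC, BAC and BPAC, and 3.00%, 11.2%, 20.3% and 22.0% higher. In the mean the shares were 30.6% lower and 28.8% higher. The counts per genotype are thus a description of the 14 and no result about the regulators. With library size alone the counts were 1 lower and 4 higher in PAC, 2 and 3 in each of BAC and BPAC, and 2 and 5 in the mean, under the same shift of all genes. Without both PAC cultures of duplicate 1, 0 were called in PAC (4 with an unadjusted p under 0.05). With the culture as a block the counts were 4 lower and 3 higher in PAC, 3 and 2 in BAC, 6 and 2 in BPAC, and 7 and 5 in the mean, where the shares of all genes were 33.8% and 32.3%. *Bach1*, which encodes the repressor that competes with NRF2, was called at -0.76 (SE 0.12, adjusted p = 6.77e-05) in PAC, -0.88 (SE 0.12, adjusted p = 2.5e-06) in BAC and -0.96 (SE 0.12, adjusted p = 5.2e-07) in BPAC, and stood at -0.55 (SE 0.17, adjusted p = 0.0334) in AC. *Mafk*, a small MAF partner, was at -0.59 (SE 0.060, adjusted p = 5.15e-09) in the mean of the genotypes, and *Mafg*, another, at 0.24 (SE 0.067, adjusted p = 0.00249). *Sqstm1*, whose product p62 removes KEAP1 by autophagy, was at -0.38 (SE 0.12, adjusted p = 0.00822) and the related factor *Nfe2l3* at 1.099 (SE 0.19, adjusted p = 1.41e-05), and *Rbx1*, of the ligase complex, at 0.24 (SE 0.057, adjusted p = 0.000698). *Cul3* and *Btrc*, parts of the ligases that mark NRF2 for degradation, were not called in any genotype.

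The genes whose pattern was most like that of *Nqo1* were found by Pearson's r of log2 CPM over the 28 samples. *Gclc* was closest of all other genes, at 0.958, followed by *Flot1* (0.921), *Cdc42ep5* (0.917), *Gss*, the second enzyme of glutathione synthesis (0.911), and *Cyb5a* (0.911). The 28 points share treatment and duplicate, which both moved these genes. Among the 14 EtOH-treated samples alone *Gclc* kept 0.930 and *Gss* 0.874, and among the 14 4-HT-treated ones 0.685 and 0.531. *Srxn1*, which also fell in every culture, had 0.846 over all samples, 0.490 with EtOH and 0.322 with 4-HT. For *Gpx2* the closest were *Nt5c3b* (0.964), *Rab15* (0.960), *Gins4* (0.959), *Ptma* (0.958) and *Pdia5* (0.958), with values from 0.824 to 0.887 within a treatment. The lists depend on the measure: by Spearman's rho 2 of the 5 genes for *Nqo1* and 1 of the 5 for *Gpx2* were again among the 5 closest. *Rab15* (chr12:76797960-76822908) is the neighbour of *Gpx2* on the same strand, with 2405 bases between them. *Gpx2* and *Nqo1* had opposite changes with 4-HT and an r of -0.53 over all samples, with 0.77 among the EtOH-treated samples, where both were lowest in BPAC donor 1, duplicate 2, and 0.045 among the 4-HT-treated ones.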

How the data were processed

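The deposited values are raw read counts per gene and sample, made by the authors from bulk RNA-seq of 28 organoid samples, 14 cultures in 2 treatments. Per the labels' processing notes Trimmomatic 0.39, STAR 2.5.2b and the GRCm38/mm10 build were used, and the counting program, annotation and strand setting are not given in the sources used here. Samples were grouped by the genotype and treatment labels, and every column belonged to a sample. Symbols were matched to Ensembl identifiers for 13479 of 13519 genes. Depth was 20577276 to 40068718 counts per sample, and precision was limited by the number of cultures.

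All genes were fitted together in edgeR 4.0.16 (R 4.3.3) by its quasi-likelihood method with 1 mean for each of the 8 genotype-by-treatment groups and TMM factors of 0.885 to 0.970 with EtOH and 1.04 to 1.098 with 4-HT. No filter on low counts was added. Benjamini-Hochberg adjustment ran over all 13519 genes, each adjusted p in the text is of this kind, and a call needed an adjusted p under 0.01. The common biological coefficient of variation was 0.191. Approximate 95% intervals are 1.96 SE either side, and log2 CPM used a prior count of 2. Cultures of 1 donor are not separate animals, so that p-values measure the spread between cultures. The EtOH- and 4-HT-treated samples of a culture deviated together from their group means (mean correlation 0.416, from 0.245 to 0.532 over 12 cultures, and -0.059 across cultures of a donor). The main fit of the 8 group means did not use these pairs. A fit with the culture as a block does. It is given where it changed the call of one of the 10 genes or the counts of NRF2 targets, enzymes or regulators. Alternatives were limma-voom (limma 3.58.1), DESeq2 1.42.0, other scalings, a minimum of 10 counts in every sample (11945 genes), single genotypes or duplicates, summed donors and left-out cultures. Tests were checked on simulated data.

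The 10 genes and all gene lists were chosen with earlier results of these data known. Named genes beyond them were the regulators of NRF2 and, per list, the 3 largest falls and rises called in the mean of the 4 genotypes, and the 5 genes with the highest r to *Nqo1* and *Gpx2*. The pentose phosphate genes, *Gstm1*, *Prdx6*, the glutathione peroxidases and *Slc7a11* were named after their values were seen. Promoter windows are RefSeq's (GRCm38.p6). Plots used Python 3.11.15 with matplotlib 3.10.9.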

Additional observations from a re-analysis of the deposited data

Results flagged for a closer look

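In 3 of 90 groups of 4 values, 1 sample lay far from the other 3 by Dixon's criterion, and chance gives about 1 in 20. *Nqo1* stood at 407 CPM in the EtOH-treated PAC sample of donor 1, duplicate 1, and the next was at 288 CPM. *Txnrd1* stood at 648 CPM in the 4-HT-treated BPAC sample of donor 2, duplicate 1, below the next at 685 CPM. The 4-HT change of *G6pdx* in PAC donor 2, duplicate 1 was 0.32 on the log2 scale against 0.12 for the next. This culture is 1 of the 2 whose 4-HT-treated libraries held both *Xist* and *Ddx3y*.

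The 4-HT change of *Gclc* differed between the duplicates, by -0.69 on the log2 scale for duplicate 1 minus duplicate 2 (SE 0.094, adjusted p = 0.000919 in edgeR), and was the larger fall in duplicate 1 in 7 of 7 donors. *Hmox1* moved down in both AC cultures and up in all 4 BAC cultures, with mean log2 changes of -0.41 and 0.37 and a difference of 0.78. That difference was not tested.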

How the results depend on the processing

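The number of the 10 genes called (2, 5, 6 and 5 for AC, PAC, BAC and BPAC) changed by more than 1.5 times under these settings. In AC it was 1 with limma-voom, 0 with library size alone, 0 with each genotype fitted alone, 0 in duplicate 2 alone, 5 at an adjusted p of 0.05, 1 without both PAC cultures of duplicate 1 and 1 with the PAC 4-HT libraries of duplicate 1 summed. In PAC it was 2 with library size alone, 0 in duplicate 2 alone, 0 without both cultures of duplicate 1 and 3 with those libraries summed. Duplicate 2 alone gave 3 in BAC, 2 in BPAC and 0, in place of 3, for the *Braf* allele after 4-HT. For the change with the *Braf* allele, 0 became 1 with DESeq2 (*Nfe2l2*), 1 with the culture as a block (*G6pdx*) and 1 at an adjusted p of 0.05. The change between duplicates went from 1 gene to 3 with the block, and the block also added *Keap1* in BAC (0.46), *Nqo1* in PAC (-0.62) and *Gpx2* in AC (0.83). Among the marker lists the block called 4 in place of 3 mature colonocyte markers lower with the *Braf* allele, 5 in place of 4 colon epithelium markers lower and 6 in place of 5 ERK output genes higher in the mean. Among the 10 genes it changed no other call of a change given in the text. Levels within a treatment could not be fitted with the block, which holds each culture's level. Leaving out 1 culture or 1 donor gave 0 to 3 genes in AC, 0 to 6 in PAC, 1 to 7 in BAC, 2 to 6 in BPAC, 1 to 3 for the *Braf* allele after 4-HT and 0 for the other contrasts. The alternatives with PAC duplicate 1 and the comparison of duplicates were chosen after seeing the data.

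Direction reversed in log2 fold changes that were not called. With library size alone *Nfe2l2* in BPAC gave 0.061, *Keap1* in PAC 0.21, and *Txnrd1* 0.098, 0.046, 0.14 and 0.14 in AC, PAC, BAC and BPAC. The medians of all genes had then moved to 0.23, 0.20, 0.13 and 0.18 in AC, PAC, BAC and BPAC. The signs under that scaling are to be read relative to these medians. In duplicate 2 alone *Nfe2l2* in BAC gave -0.019, *Txnrd1* in BAC 0.15, *Hmox1* in PAC 0.15 and the change of *Nqo1* with the *Braf* allele 0.00048. In duplicate 1 alone *Hmox1* in BPAC gave -0.072 and *G6pdx* in AC -0.13, and limma-voom gave *Hmox1* in BPAC -0.00055. Without both PAC cultures of duplicate 1 *Hmox1* in PAC gave 0.15 and the change of *Gclc* with the *Braf* allele -0.030. Leaving out 1 culture or donor gave values on both sides of 0 for *Keap1* in PAC (-0.077 to 0.053), *Txnrd1* in BAC (-0.089 to 0.031) and BPAC (-0.16 to 0.0098), *Hmox1* in PAC (-0.55 to 0.0035) and BPAC (-0.10 to 0.18), *G6pdx* in AC (-0.12 to 0.26), and the change with the *Braf* allele of *Nqo1* (-0.27 to 0.031), *Gclc* (-0.097 to 0.26) and *Gclm* (-0.020 to 0.16). The cause was not tested.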

Other observations

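The goblet cell markers moved in both directions, with 2 of 6 higher and 3 lower in the mean of the 4 genotypes, and a summed level of 1851 to 3926 CPM with EtOH and 1671 to 2648 CPM with 4-HT. Of the 8 colon epithelium markers 1 rose and 4 fell, with summed levels of 17672 to 28531 CPM and 15908 to 21502 CPM. Of 7 ERK output genes 5 rose and 1 fell. Their summed level after 4-HT was 499 to 598 CPM in BAC and BPAC and 291 to 349 CPM in AC and PAC, with no overlap, and 215 to 343 CPM in all EtOH-treated samples. In the mean, 28.8% of all genes were called higher and 30.6% lower. The part of these lists in the changes of the antioxidant genes was not tested.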
